A study of Mus musculus with 6 samples.

Results

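The 300 circular RNAs (circRNAs) with the most intense probes were described in the hippocampus of mice at postnatal day 7, out of 14236 circRNAs on the array. They were chosen by signal alone. On each of 6 arrays the processed intensity of every circRNA probe was divided by the 75th percentile over the circRNA probes of that array, and log2 of this ratio was averaged over the 6 arrays, whatever their group. Of the 10635 circRNAs that the scanner software marked as well above background on all 6 arrays, the 300 with the highest average were kept. The levels of these 300 circRNAs are therefore a description and were not tested against the rest. Linear signals below are multiples of the 75th percentile of the array, and averages of signals are geometric means unless stated.

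All 6 samples were hippocampal RNA from C57BL/6 mice aged 7 days. In the sevoflurane group (n = 3 arrays) the mice had received 3% sevoflurane, an inhaled general anaesthetic, in a single exposure of 4 h. In the control group (n = 3 arrays) the mice had not been exposed to it. Every sample had been treated with RNase R, which removes linear RNA from its free ends, before random-primed Cy3 labelling. Whether an array held 1 animal or a pool is not stated in the labels. P-values here therefore reflect only the spread from sample to sample, and this spread may be technical. In tissue RNA, fewer cells of a type and less RNA per cell cannot be told apart.

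CircRNAs form when the spliceosome joins a downstream splice donor to an upstream acceptor, a reaction called back-splicing. Without free ends they resist exonucleases and persist in cells, and they are abundant in brain, where many arise from genes of synaptic proteins and accumulate as neurons mature. Some bind microRNAs or proteins, and the role of most is unknown. The files used here identify circRNAs by array number and do not pair these numbers with host genes, positions or sequences, so identifiers are printed as the files give them. A probe's brightness also depends on how well it binds its target, so signal ranks and shares are not numbers of molecules.

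The 75th percentile of the intensity ranged from 51.7 to 80.2, with the highest value in control 1, and 11509 to 12077 circRNAs were well above background on 1 array. No circRNA spot was saturated, so the most intense probes were within the range of the scanner. By position, the 3 sevoflurane arrays and control 1 lay in slide row 1, and controls 2 and 3 in slide row 2. Of 38 cell type markers looked for among the linear probes, 3 had a probe. Apoe, an astrocyte gene, was well above background on all 6 arrays. Its arithmetic mean was 5.73 ± 0.21 (SD, n = 3) in controls against 4.99 ± 0.34 (SD, n = 3) after exposure. Chgb, a gene of neuronal secretory vesicles, was well above background on 4 arrays and Mbp, a myelin gene, on 0. These linear probes were read after RNase R, so they check the labelled tissue only weakly, and their part in the results below was not tested.

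The 300 circRNAs, 2.11% of those on the array, carried more of the processed circRNA signal than all others together. Their share of the summed signal was 56.1%, 53.8% and 54.8% on sevoflurane arrays 1 to 3 and 53.0%, 52.6% and 54.8% on controls 1 to 3, a mean of 54.2% ± 1.30 (SD, n = 6). The group means were 54.9% ± 1.16 (SD, n = 3) with sevoflurane and 53.5% ± 1.17 (SD, n = 3) without, and the groups overlapped. The difference, 1.41 percentage points, was small beside the share itself and about the size of the SD within groups.

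The signal was concentrated further within the 300. The brightest circRNA alone held 5.23% of the circRNA signal on average (4.33% to 5.80% on single arrays), the 5 brightest held 20.3% and the 10 brightest 24.7% ± 1.72 (SD, n = 6). The share of the 10 brightest was lowest on control 1, at 21.9%, and 23.3% to 26.0% on the other 5 arrays. The 50 brightest held 35.6% and the 100 brightest 42.4%, whereas 1000 circRNAs held 69.2%. Counted on each array by itself, between 8 and 18 circRNAs were needed to reach 25% of the signal and between 150 and 232 to reach 50%. Reaching 75% took 1348 to 1643 circRNAs and reaching 90% took 4393 to 4741, so the rest of the signal was spread thinly.

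**Figure D1:**
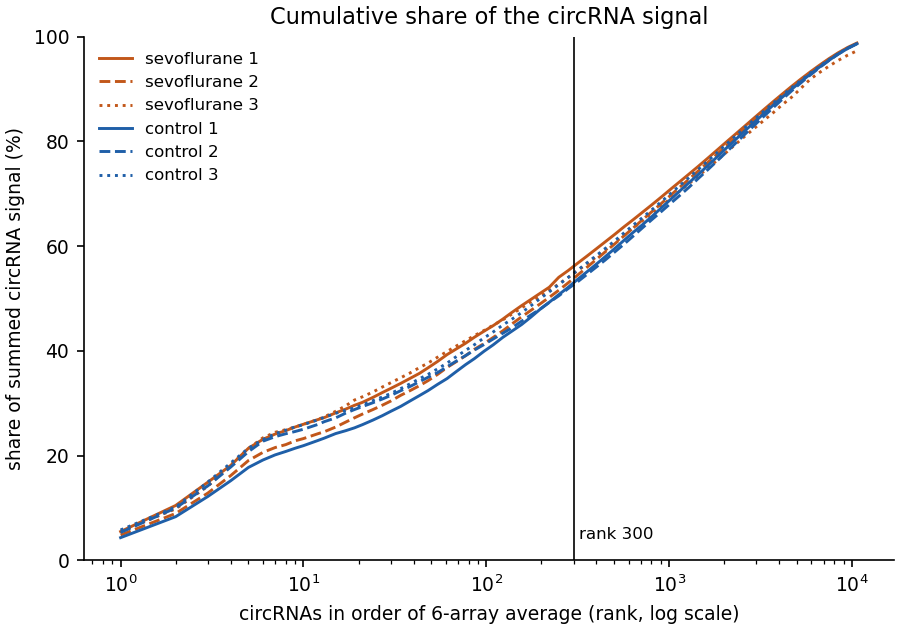
Cumulative share of the summed circRNA signal (%, y axis) against the rank of circRNAs by their average over the 6 arrays (log scale, x axis), 1 line per array. The lines cross rank 300 between 52.6% and 56.1%, and the 2 groups overlap along the curve.

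Shares were below 50% in some other processings, though the share was 54.2% with quantile scaling. With normexp background correction and an offset of 50 on median spot signals the 300 held 37.8% of the signal, and in the authors' deposited log2 table, converted to a linear scale, 47.0%. The difference between groups was then 0.0796 and -0.0569 percentage points, and with quantile scaling -0.555, so no direction is given for it. The normexp offset of 50 is added to every probe, and the 75th percentile of the processed intensity was only 51.7 to 80.2. By arithmetic such an offset lowers the share of the brightest probes, so the 37.8% is in part a product of this setting.

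Within the 300, average signals spanned 10.5 to 1415, with a median of 18.7 and quartiles of 13.2 and 34.4. A signal of 20 or more was reached by 138 circRNAs, 50 or more by 47, 100 or more by 17, 200 or more by 7 and 1000 or more by 3. The lower end of the list was not a break in the distribution. The last members, ASCRP4008778 and ASCRP4013898, averaged 10.50 and 10.48 (log2 3.39 and 3.39, SD over 6 arrays 0.18 and 0.35). The next below, ASCRP4000798 and ASCRP4008641, averaged 10.46 and 10.45 (log2 3.39 and 3.38, SD 0.07 and 0.17).

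The 5 most intense circRNAs stood clear of the rest, each above 500 on all arrays. ASCRP4006710, the brightest, read 1534, 1296 and 1595 on the sevoflurane arrays and 1160, 1360 and 1606 on the controls. ASCRP4006342 read 1389, 1104 and 1213 with sevoflurane and 1072, 1190 and 1213 in controls. ASCRP4012684 read 1241, 1045 and 1244 with sevoflurane and 1033, 1082 and 1319 in controls. In each of these 3 the groups overlapped, and control 1 was the lowest array. ASCRP4013042 read 894, 894 and 1150 against 804, 916 and 1008 in controls. ASCRP4004008 read 915, 771 and 909 against 679, 750 and 776 in controls. For ASCRP4004008 all arrays but sevoflurane 2 were ordered by group, with sevoflurane 2 just below control 3.

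The next 5 were dimmer by steps. ASCRP4007626 read 476, 418 and 579 with sevoflurane and 380, 511 and 461 in controls. ASCRP4011502 read 281, 248 and 304 with sevoflurane and 263, 221 and 309 in controls. The groups overlapped in both, and the highest and lowest arrays were not the same in the 2 circRNAs. ASCRP4012979 read 183, 150 and 142 against 174, 143 and 186 in controls. ASCRP4009692 read 192, 194 and 144 against 165, 110 and 176 in controls. ASCRP4007838 read 148, 116 and 148 against 133, 111 and 121 in controls. Control 2 was the lowest or next to lowest array in these last 3, and no group stood apart.

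Some neighbours in the order of probe signals kept their places on all arrays and others changed them. ASCRP4006710 was above ASCRP4006342 on 6 of 6 arrays, by 0.25 ± 0.13 (SD, n = 6) on the log2 scale. ASCRP4006342 and ASCRP4012684 differed by less than their spread, at 0.05 ± 0.11 (SD, n = 6), with this order on 4 of 6 arrays, and the fourth was above the fifth on 5 of 6. The steps from the fifth to the sixth, the sixth to the seventh and the seventh to the eighth circRNA were 0.77 ± 0.15, 0.79 ± 0.25 and 0.73 ± 0.19 (SD, n = 6) and were seen on 6 of 6 arrays. The eighth and ninth, ASCRP4012979 and ASCRP4009692, were in this order on 3 of 6 arrays and differed by 0.01 ± 0.25 (SD, n = 6). The tenth was above the eleventh on 2 of 6 arrays.

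**Figure D2:**
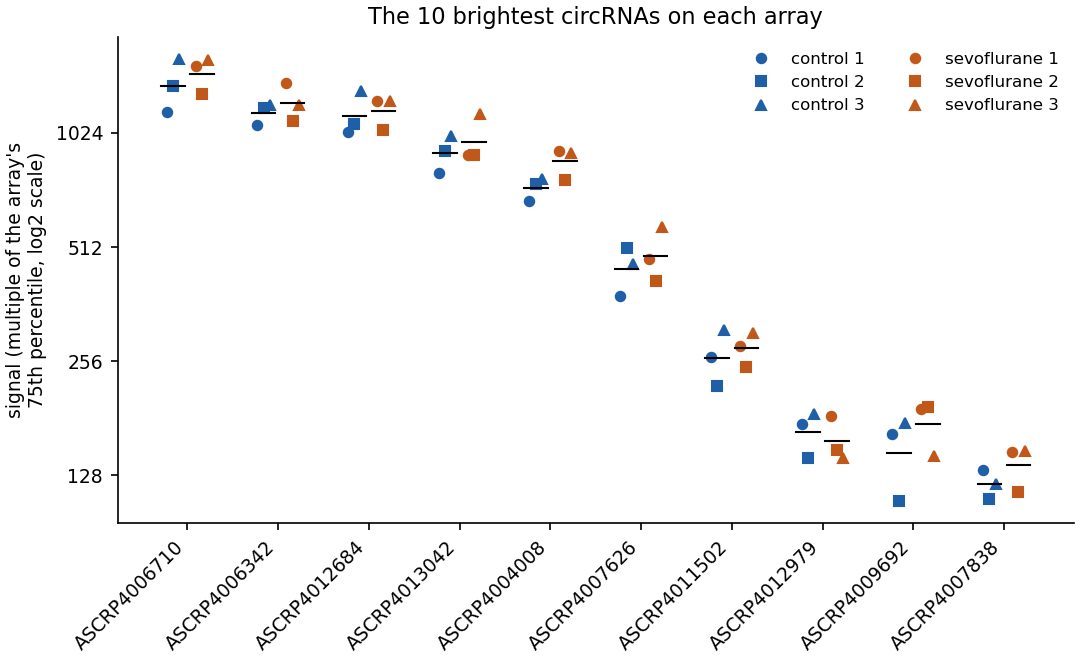
Signal of the 10 brightest circRNAs on each array (multiple of the array's 75th percentile, log2 axis), controls in blue and sevoflurane in orange, with a line at the geometric mean of each group. The arrays of the 2 groups overlap for all 10 circRNAs, from ASCRP4006710 at 1160 to 1606 to ASCRP4007838 at 111 to 148.

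The list itself changed little with the arrays used to choose it. The same rule run on the sevoflurane arrays alone picked 284 of the 300, and on the control arrays alone 288. These 2 choices, each made without the other group, shared 272 circRNAs. Single arrays picked 271 to 281 of the 300, and the top 300 of any 2 arrays shared 249 to 281 (median 263 over 15 pairs). Of the 300, 231 were among the top 300 on every array, and all 300 stayed within the top 1000. The worst rank was 632, of ASCRP4007513, whose best rank was 138. The 10 brightest never ranked below 15, and the 100 brightest never below 281.

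Because the choice can favour the arrays it is made on, the share was also read on arrays the choice had not used. The 300 chosen on controls held 54.6% ± 0.83 (SD, n = 3) of the signal on the sevoflurane arrays. The 300 chosen on the sevoflurane arrays held 53.2% ± 1.06 (SD, n = 3) on the controls. Both lay near the 54.2% of the list chosen on all arrays.

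One circRNA owed its place to a single spot. ASCRP4006536 had a signal of 192 on sevoflurane 1, a spot that the scanner software had marked as an outlier, and a log2 signal of 2.53 to 3.33 on the other 5 arrays. Its log2 average was 3.65 with that spot and 2.86 without it, below the limit of the list. Outlier marks fell on 5 values of 4 circRNAs among the 300, of which 3 values lay on sevoflurane 1, and the other 3 circRNAs stayed in the list without them. Marked values were left out of the test between groups, so these 4 circRNAs were tested over fewer arrays. The shares of the summed signal above include the marked values, among them the 192 of ASCRP4006536 on sevoflurane 1.

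The comparison of the groups asks whether the most abundant circRNAs differ in level after neonatal sevoflurane. None of the 300 passed the test in either direction, and most lay close to the same level in both groups. At an adjusted p under 0.05, 0 were higher and 0 lower, where 0.00% of the 11957 circRNAs tested were higher and 0.00% lower (limma with Benjamini-Hochberg adjustment over all tested; smallest adjusted p among the 300, 0.381). All 300 entered the test, as the rule had required a signal above background on every array. Log2 fold changes, sevoflurane over control, ranged from -0.85 to 1.19 with a median of -0.03, beside a median of -0.01 over all tested. Of the 300, 130 were above 0 and 170 below, and 280 were within 1.5-fold.

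The intervals show what sizes these 6 arrays allow. The 95% confidence interval of the fold change lay within 2-fold in either direction for 267 of the 300 (89.0%), and within 1.5-fold for 179 (59.7%). A p that missed the threshold does not show that levels were equal, and for the remaining 33 circRNAs a change of 2-fold was inside the interval.

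At an unadjusted p under 0.05 in limma, 20 of the 300 (6.67%) were higher with sevoflurane, where 3.58% of all tested were, and 2 (0.667%) were lower, where 3.62% were. The 3 sevoflurane arrays lay above the 3 controls for 30 of the 296 circRNAs with complete values (10.1%, with 6.01% among all) and below them for 6 (2.03%, with 5.70% among all). A fold change of 2 or more to the higher side was estimated for 6 circRNAs (2.0%, with 0.226% of all tested), and to the lower side for 0 (0.301% of all tested). In these counts the higher side was above the background of the array and the lower side below it. The median fold change and the 130 of 300 above 0 did not lean to the higher side.

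These counts turned on the control arrays and on the scaling. Without control 2, 31 were higher and 40 lower at an unadjusted p under 0.05 in limma, where 8.49% and 9.24% of all tested were. Without control 3 the counts were 14 and 0 (2.56% and 2.03% of all tested), and without control 1 they were 19 and 1 (2.41% and 2.54%). Without sevoflurane 1 they were 15 and 4 (2.90% and 3.59%). With quantile scaling they were 12 and 6 (3.66% and 3.51% of all tested), and the count of circRNAs with all sevoflurane arrays above the controls was 16, with 25 below. The shares over all circRNAs under this scaling are not given for the 16 and 25, so these are not read against a background. With normexp the counts at an unadjusted p were 23 higher and 13 lower (2.83% and 2.69% of all tested), and they were 29 and 15 in the authors' deposited log2 values (3.63% and 3.63%). In number, the lower side was the larger without control 2, as it was among all tested.

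The slide row was a further limit. Within row 1, where control 1 is the lone control and its spread is taken from the other arrays, 20 were higher and 19 lower at an unadjusted p under 0.05 in limma, where 6.59% and 5.59% of all tested were, so both counts were near the background. With the row as a block, 15 were higher and 6 lower (5.03% and 3.84% of all tested). Row 2 held controls only, so the fold changes under this block come from row 1, with control 1 as the lone control. Controls 2 and 3 entered only through the estimate of spread. The block is thus not a check separate from row 1 alone. Without controls 1 and 3, so that control 2 is the lone control, 18 were higher and 1 lower (3.17% and 2.36% of all tested), and the median log2 fold change was 0.15.

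**Figure D3:**
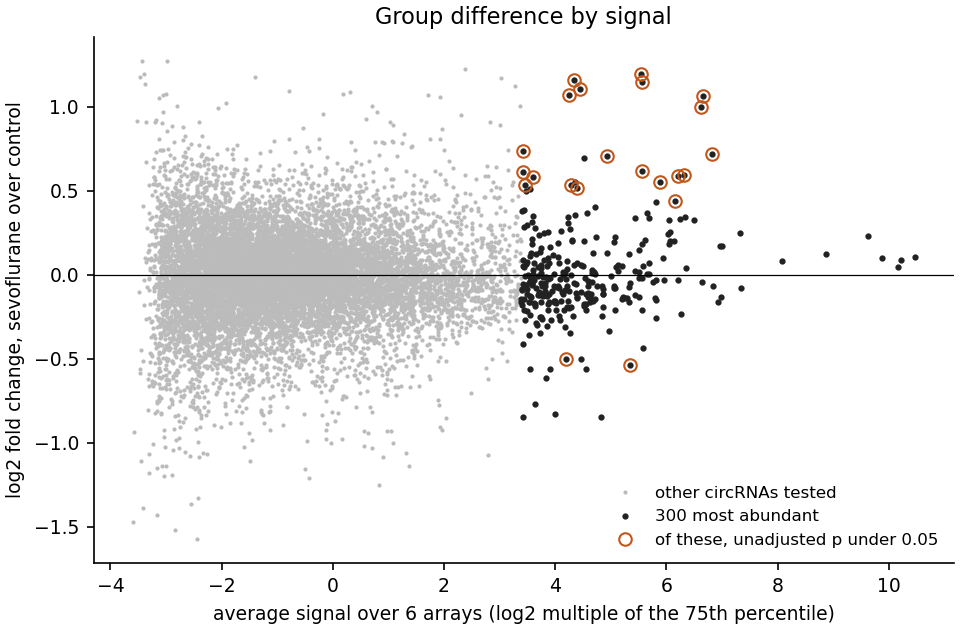
Log2 fold change, sevoflurane over control (y axis), against the average log2 signal over 6 arrays (x axis) for the circRNAs tested, with the 300 most abundant in black and those at an unadjusted p under 0.05 in limma circled. The 20 circled circRNAs above 0 reach 1.19, the 2 below 0 lie at -0.50 and -0.54, and the 10 brightest, at the right, lie between -0.08 and 0.25.

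The 10 brightest circRNAs differed little between the groups. Their log2 fold changes ran from -0.08 to 0.25, 9 of the 10 were above 0, and 0 reached an unadjusted p under 0.05 in limma. For ASCRP4006710 the log2 fold change was 0.11 (SE 0.18; limma, Benjamini-Hochberg adjusted p = 0.927). It was 0.23 for ASCRP4004008 (SE 0.15; limma, adjusted p = 0.796) and 0.25 for ASCRP4009692 (SE 0.22). The direction is not firm, as 6 of the 9 turned below 0 under at least 1 other scaling, background correction or weighting of arrays.

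By level, the circRNAs at an unadjusted p under 0.05 lay outside the top 10. Among ranks 11 to 50, 7 of 40 were higher and 0 lower in limma, with a median log2 fold change of 0.18. Among ranks 51 to 100, 4 of 50 were higher and 1 lower. Below rank 100, 9 of 200 were higher and 1 lower, with a median of -0.06. Over all tested, 3.58% were higher and 3.62% lower, and no bin was tested against these shares. The 20 on the higher side had log2 fold changes of 0.44 to 1.19 (median 0.66) and adjusted p from 0.381 to 0.669 (limma, Benjamini-Hochberg). In 15 of the 20 all sevoflurane arrays were above all controls. As the 20 were picked for a small p and a higher level in these same arrays, this follows largely from the choice.

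ASCRP4004748, at rank 137, had the smallest p on the higher side. It read 34.2, 34.7 and 23.0 on the sevoflurane arrays and 11.5, 12.6 and 17.0 on the controls. The groups did not overlap, and sevoflurane 3 was the array nearest to the controls. Its difference in log2 signal was 1.16 (SE 0.22; limma, Benjamini-Hochberg adjusted p = 0.381). ASCRP4000662, at rank 52, read 86.9, 81.2 and 48.7 with sevoflurane and 27.5, 35.8 and 32.2 in controls. Again the groups were apart and sevoflurane 3 was the lowest of the exposed arrays. The difference in log2 signal was 1.15 (SE 0.24; limma, adjusted p = 0.381).

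On the lower side, ASCRP4002894, at rank 156, read 19.1, 14.4 and 13.3 with sevoflurane and 20.6, 19.9 and 25.3 in controls. The groups were apart, with sevoflurane 1 close to controls 1 and 2, and the log2 fold change was -0.50 (SE 0.19; limma, Benjamini-Hochberg adjusted p = 0.608). ASCRP4007518, at rank 64, read 33.4, 34.2 and 34.2 with sevoflurane and 55.7, 35.2 and 60.8 in controls. Control 2 lay beside the sevoflurane arrays, and controls 1 and 3 stood well above. The difference in log2 signal was -0.54 (SE 0.21; limma, adjusted p = 0.629).

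The 6 circRNAs higher by 2-fold or more lay at ranks 16 to 146, with folds of 2.09 to 2.29 and adjusted p from 0.381 to 0.435 (limma, Benjamini-Hochberg). Set against the control mean, their median was 2.71-fold on sevoflurane 1, 2.52-fold on sevoflurane 2 and 1.52-fold on sevoflurane 3. The circRNA at rank 16 read 110, 141 and 199 with sevoflurane and 70.3, 81.7 and 58.5 in controls, and was highest on sevoflurane 3. ASCRP4004748 was highest on sevoflurane 2. Over the 6 arrays the log2 signals of these circRNAs moved together, with a median Pearson r of 0.96 over 15 pairs (0.54 to 0.999). As they were picked for the same direction between groups, some likeness follows from the choice. The circRNAs at ranks 56 and 126 tracked ASCRP4000662 at r above 0.99. Whether such probes share a host gene or a sequence is not given by the files.

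The 6 kept their direction under every setting run, with log2 fold changes of 0.78 or more, and from 2 to 6 of them stayed at 2-fold. As the 6 were picked for large differences in these same arrays, the kept direction follows largely from the choice. Weighting arrays by their quality in limma was the only setting run in which any of the 300 passed the adjusted test. It called 2, ASCRP4000662 and the circRNA at rank 16, both at an adjusted p of 0.0480 (limma with Benjamini-Hochberg adjustment), among 37 of all tested. Over all settings the adjusted p of the 6 ranged up to 0.99996, without control 3.

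Replicate spread set the scale for these differences. The median SD within groups over the 300 was 0.21 on the log2 scale, beside 0.23 over all tested. It was 0.13 in the sevoflurane group and 0.23 in controls, and the SD was larger in controls for 71.7% of the 300, compared with 57.7% of all tested. Without control 2 the median SD of the controls was 0.11, and the median SD within groups was 0.14. Without control 1 or control 3 the median SD of the controls was 0.23 or 0.29. Much of the spread among controls thus came with control 2. Leaving out the array furthest from the others lowers an SD. The 0.11 also comes from fewer arrays than the 0.13 of the sevoflurane group, so it does not rank the groups. Repeated spots on 1 array varied far less: 14 control probes with 10 spots on each array had a median SD between spots of 0.054 and at most 0.083, and 3 of them were as bright as the 300. Between arrays the same control probes had a median SD of 0.17, close to that of the 300.

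The steadiest of the 300 were nearly level on all arrays. ASCRP4013339 read 30.7, 32.7 and 32.1 with sevoflurane and 29.2, 27.9 and 30.4 in controls (SD within groups 0.055 on the log2 scale). ASCRP4006770 read 17.98, 18.3 and 18.2 with sevoflurane and 17.98, 17.8 and 19.7 in controls (SD 0.059). An SD under 0.1 was found for 20 circRNAs and one over 0.5 for 14.

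The largest spreads belonged to ASCRP4006536, through the marked spot, and to ASCRP4005002. ASCRP4005002, at rank 238, read 17.1, 8.23 and 6.07 with sevoflurane and 26.2, 6.02 and 26.9 in controls (SD within groups 1.03). Controls 1 and 3 were high and control 2 was as low as the lowest sevoflurane array, so the groups overlapped. The log2 fold change was -0.77 (SE 0.58; limma, Benjamini-Hochberg adjusted p = 0.822), and with control 2 as the lone control it was 0.66. The log2 signals of 36 other circRNAs of the 300 followed it over the 6 arrays at r above 0.9, with smaller swings. Their median deviations were 0.25 and 0.21 on controls 1 and 3 and -0.22 on control 2, and 0.04, -0.06 and -0.23 on sevoflurane 1 to 3. None of the 36 reached an unadjusted p under 0.05 in limma. As the 36 were picked for likeness to ASCRP4005002 over the same arrays, these deviations and the lack of a small p follow in part from the choice. How many of all tested circRNAs followed it as closely is not given.

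**Figure D4:**
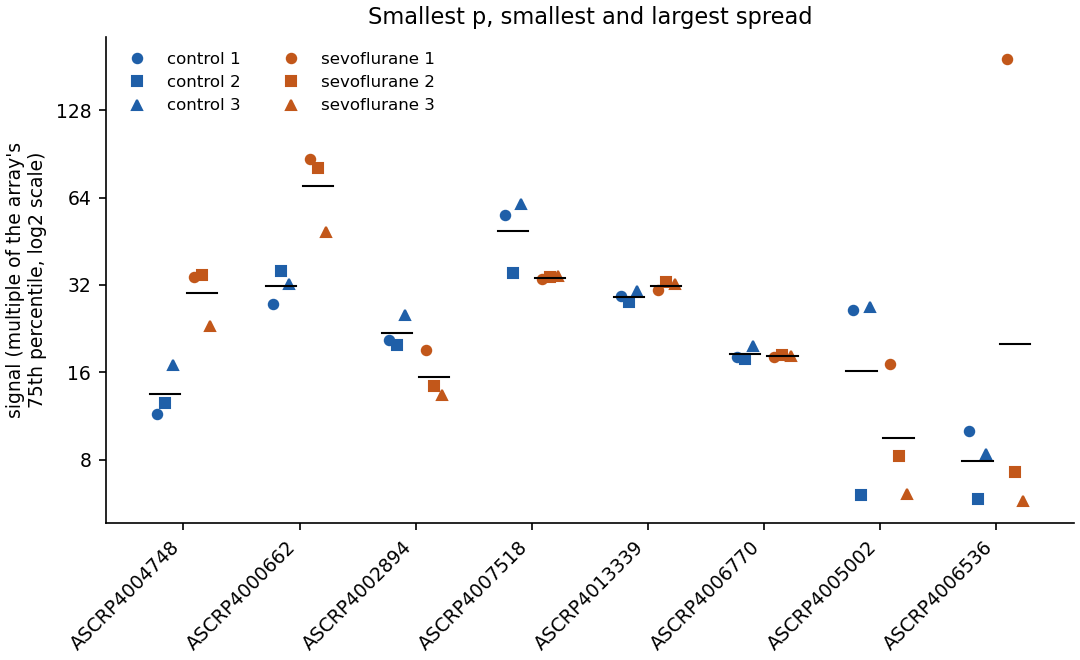
Signal on each array (multiple of the array's 75th percentile, log2 axis) of the circRNAs with the smallest p in each direction and with the smallest and largest SD within groups, controls in blue and sevoflurane in orange, with a line at each group's geometric mean. ASCRP4004748 and ASCRP4000662 are higher on all sevoflurane arrays, ASCRP4005002 splits the controls into 26.2 and 26.9 against 6.02, and ASCRP4006536 has 1 array at 192, a spot marked as an outlier and left out of the test.

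Controls 1 and 3 lay on one side of the 6-array mean, and control 2 on the other, for many of the 300 but not all. Control 1 was above the 6-array mean for 193 of the 300 and control 3 for 203, whereas control 2 was above it for 60. The sevoflurane arrays were above it for 157, 158 and 135. The median deviation of the 300 was 0.11 on control 1, 0.08 on control 3 and -0.18 on control 2, and it lay between -0.03 and 0.01 on the sevoflurane arrays. Over all tested circRNAs the median deviation lay between -0.01 and 0.03 on the 6 arrays. Scaling each array by a percentile of its own circRNA probes holds this median nearly level. The median over all tested therefore does not show that the shifts were particular to the 300. Control 2 was the lowest of the 6 arrays for 141 of the 300, and control 1 the highest for 111. The 3 brightest circRNAs ran the other way, with control 1 below control 2.

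Distances between arrays showed the same. Over the 300, the median absolute log2 difference was 0.41 between controls 1 and 2 and 0.32 between controls 2 and 3, but 0.15 between controls 1 and 3. Pairs of sevoflurane arrays differed by 0.11 to 0.17. Pairs across the groups ranged from 0.17, sevoflurane 3 with control 2, to 0.35, sevoflurane 3 with control 1. Control 2 was thus nearer to each sevoflurane array than to the other controls. Across the 300, deviations from the 6-array mean correlated at r = 0.72 between controls 1 and 3, -0.53 between controls 1 and 2 and -0.39 between controls 2 and 3. These are correlations across circRNAs, which are not independent replicates, and deviations from a shared mean tend below 0.

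**Figure D5:**
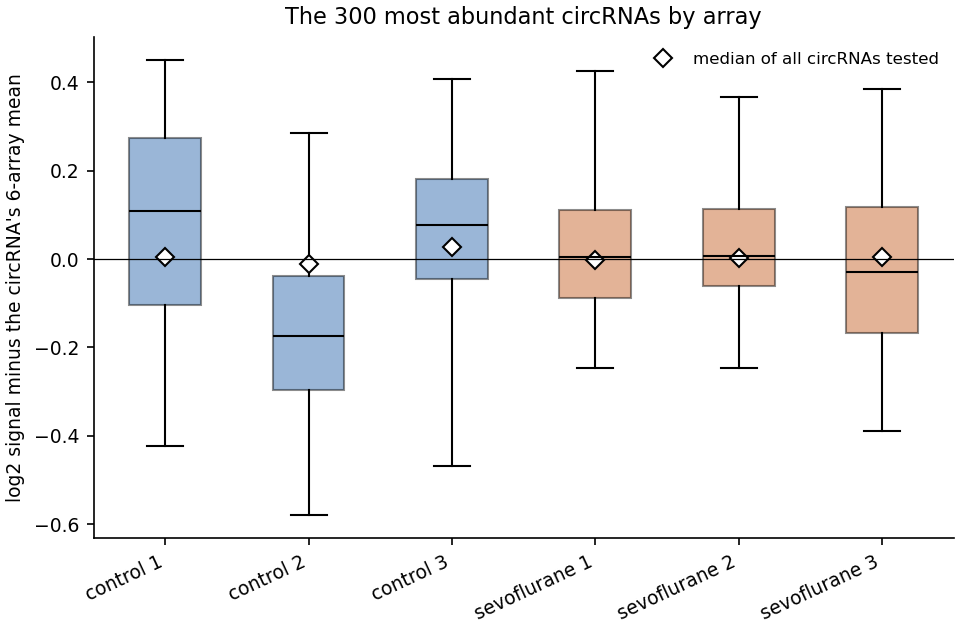
Deviation of the 300 circRNAs from their own 6-array mean (log2, y axis) on each array: boxes give quartiles and median, whiskers the 5th and 95th percentiles, and diamonds the median of all circRNAs tested. The box of control 2 sits low, with its median at -0.18, and those of controls 1 and 3 high, at 0.11 and 0.08. All diamonds lie between -0.01 and 0.03, where the scaling of each array on its own circRNA probes largely holds them.

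Array numbers of the circRNAs gave a further view of likeness that the rule had not used. Among the 300 there were 13 pairs with consecutive numbers, in 26 circRNAs. Their log2 signals over the 6 arrays correlated with a median Pearson r of 0.78, beside 0.18 over all 44850 pairs of the 300. At r above 0.99 there were 61 pairs, 0 of them with consecutive numbers. All pairs share the same 6 arrays and their scaling, so these values describe these arrays only.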

How the data were processed

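The deposited scanner files hold the intensity of each spot in 1 colour (Cy3) after the software's background subtraction, written by Agilent Feature Extraction 11.0.1.1, per the file headers. The authors' deposited log2 value table was used as an alternative only. The submitters' processing notes name limma without a version, and how that table was normalised is unknown. Its columns tracked the log2 median spot signals of the arrays at r of 0.999 or above, their medians lay between 5.43 and 5.45, and it held all 300 circRNAs.

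Here, control spots were left out of the circRNA values, and the spots of circRNA probes were used without averaging. For the test, values marked as outliers were set to missing, and the 11957 circRNAs well above background on 3 or more arrays were fitted in limma 3.58.1 (R 4.3.3) as log2 signal minus the array's 75th percentile, by group, with Benjamini-Hochberg adjustment. The fit was tested on simulated data. The circRNAs described and the marker lists were chosen with earlier results of these data known. Named were the 10 brightest, those next to the limit of the list, those with the 2 smallest p in each direction, and the 2 smallest and largest SD within groups. ASCRP4007513 was named after its values were seen. As the files name no host genes, the planned list of hosts was not used. Alternatives were normexp with an offset of 50 on median spot signals (the files used here hold no mean), other scalings, the deposited table, other filters, limma's trend and robust options, array weights, a block on replicate number, and each array left out. The slide row, leaving out controls 1 and 3, and a choice without outlier spots were added after seeing the data. The positions of the arrays, by slide row and column, did not repeat, as would be the case on 1 slide. No slide identifier was read, so whether the arrays shared a slide is not shown, and no slide block was fitted. The number of arrays limits the precision.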

Additional observations from a re-analysis of the deposited data

How the results depend on the processing

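Under the alternatives run, the adjusted test called 0 of the 300 circRNAs, except 2 on the higher side with array weights, and leaving out single arrays gave 0 to 0 in each direction. At an unadjusted p under 0.05 in limma, the 20 higher and 2 lower became 12 and 6 with quantile scaling, 38 and 29 with array weights (10.7% and 12.2% of all tested, so both counts lie near the background), 23 and 13 with normexp, 29 and 15 in the deposited table, 25 and 4 with trend and robust options (3.72% and 3.87% of all tested), 15 and 6 blocked by slide row, 20 and 19 within row 1, and 18 and 1 without controls 1 and 3. Without single arrays the higher count ranged from 14 to 31 and the lower from 0 to 40. The circRNAs with all sevoflurane arrays above the controls, 30 in the main processing, numbered 17 with normexp, 16 with quantile scaling and 19 in the deposited table, and those below, 6 in the main processing, 10, 25 and 16. Outside the main processing the shares over all circRNAs are not given for these counts, so they are not read against a background. The share of 54.2% moved to 37.8% with normexp and 47.0% in the deposited table, and its difference between groups to 0.0796, -0.555 (quantile scaling) and -0.0569 percentage points; without single arrays they ranged from 53.8% to 54.5% and from 0.802 to 2.08. The rule picked 291 to 300 of the 300 again, and the median SD ranged from 0.14 to 0.25. The cause of these shifts was not tested.

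No pairing of the samples by the replicate numbers of the labels was evident. Same-numbered arrays deviated together at r of 0.09, 0.04 and -0.10 over all circRNAs tested (0.32, 0.05 and -0.29 over the 300). With so few arrays per group, these values cannot exclude a paired design. With the replicate number as a block, limma called 0 higher and 0 lower after adjustment, and 22 higher and 6 lower at an unadjusted p under 0.05 (3.59% and 4.36% of all tested).

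The median log2 fold change of the 300, -0.03, turned to 0.15 without controls 1 and 3, 0.018 without control 1 and 0.0059 without control 3. Of 378 log2 fold changes of named circRNAs under alternatives, 351 kept direction and call, 26 turned direction and 1 newly passed the adjusted test (ASCRP4000662 with array weights, 1.19). With normexp, ASCRP4006710 turned to -0.017, ASCRP4006342 to -0.10 and ASCRP4007626 to -0.0022. With quantile scaling, ASCRP4013042 turned to -0.083 and ASCRP4011502 to -0.18. With array weights, ASCRP4006710 turned to -0.076, ASCRP4012684 to -0.13, ASCRP4013042 to -0.023 and ASCRP4011502 to -0.12. In the deposited table, ASCRP4006342 turned to -0.12 and ASCRP4006770 to 0.0035, and with a slide row block or row 1 alone ASCRP4006770 turned to 0.015. Without controls 1 and 3, ASCRP4007626 turned to -0.071, ASCRP4012979 to 0.14, ASCRP4008778 to 0.051, ASCRP4013898 to 0.37, ASCRP4006770 to 0.031 and ASCRP4005002 to 0.66. Leaving out single arrays turned the direction of 7 circRNAs. Their log2 fold changes ranged from -0.0086 (without control 1) to 0.226 for ASCRP4006710, from -0.0265 (without control 1) to 0.149 for ASCRP4012684, from -0.019 (without sevoflurane 3) to 0.180 for ASCRP4013042 and from -0.0047 (without sevoflurane 3) to 0.230 for ASCRP4007626. They ranged from -0.0412 (without control 2) to 0.20 for ASCRP4011502, from -0.405 to 0.011 (without control 3) for ASCRP4013898 and from -0.0521 to 0.023 (without control 3) for ASCRP4006770.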
